A study of Mus musculus with 95 samples.

Results

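T cell segments of mouse thymoma were compared with T cell segments of the medulla of control thymus. Membership followed the cell type label of each segment, and 23 of the 95 segments of the series took part. These were 12 thymoma T cell segments from 4 mice and 11 medullary T cell segments from 3 control mice. Thymoma mice 1042, 1044, 1082 and 1157 gave 3 segments each. Of the control mice, 1057 gave 5, 1172 gave 3 and 1143 gave 3.

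The thymus is where T cells are made. Immature T cells multiply and are first selected in its cortex, and those that pass move to the medulla, where medullary epithelial cells and dendritic cells present self antigens to maturing T cells. Thymoma is a tumour of thymic epithelium that often holds many T cells among its epithelial cells, in many cases immature ones of the kind that fills the normal cortex. The T cells themselves are not the tumour cells.

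The series used thymus fixed in formalin and embedded in paraffin, from mice with a knock-in of mutant Gtf2i, a gene that encodes a general transcription factor, and from control mice. The thymoma mice had the genotype Gtf2ifl/wt Foxn1-Cre/wt, with Cre under the control of Foxn1, which is active in thymic epithelium and not in T cells. Control mouse 1057 was Gtf2ifl/fl, and control mice 1172 and 1143 were Gtf2ifl/wt with no Cre named. Control mouse 1059, which enters only values of the cortex and of B cells, was also Gtf2ifl/fl with no Cre named. A floxed Gtf2i allele was thus carried by both groups, and the comparison has no control that carries Cre alone. Ages are not given in the sources used here. Mice 1042 and 1044 lay on one slide, 1082 and 1157 on another, 1172 and 1143 on another, and 1057 on a slide with control mouse 1059, which had no medullary segment. Slide and group therefore cannot be told apart, and neither can control genotype and control slide.

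RNA was measured with the GeoMx mouse whole transcriptome panel, in which probes carry a tag that is released by light from a chosen area of tissue and then counted by sequencing. Within each region, light was limited to the area stained for CD3, a protein of the T cell receptor complex. A T cell segment is therefore an area rich in T cells and not a purified population. Fewer cells of a type and less RNA per cell cannot be told apart in such segments. The panel reports 20175 probe IDs. No file or table used here pairs them with gene names, so the T cell label could not be checked against marker genes, Gtf2i itself could not be looked at, and results are given for groups of probes and for 4 probes by ID.

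The segments of a mouse were added up into 1 library, and the mouse was the replicate. The thymoma T cell libraries held 16939891 counts in mouse 1042, 10700536 in 1044, 12745907 in 1082 and 17653470 in 1157. The medullary T cell libraries held 7674956 counts in mouse 1057, 6407318 in 1172 and 350028 in 1143. Mouse 1143 stood apart by depth, with 64.9 counts per nucleus, against 1013 in mouse 1057 and 783 in mouse 1172. Each thymoma library gave 1020 to 2048 counts per nucleus. A floor of 3 counts came to 8.57 CPM (counts scaled to a common library total) in mouse 1143 and to 0.468 CPM or less in the other 6 libraries, which covers counting error only. Over the 20175 probes, log2 CPM values of mouse 1143 correlated at 0.556 and 0.586 with the other control libraries, while those correlated with each other at 0.952. Pairs of thymoma libraries correlated at 0.951 to 0.984.

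Sequencing saturation also moved with the groups. It was 76.2%, 75.1%, 75.0% and 73.9% in thymoma mice 1042, 1044, 1082 and 1157, against 88.2%, 85.2% and 84.0% in control mice 1057, 1172 and 1143. The ranges did not overlap, and the exact two-sided permutation p of 0.0571 is the smallest that 4 against 3 mice can give. The 100 highest probes held 15.4% ± 1.92 of the counts in thymoma T cells and 13.1% ± 1.14 in medullary T cells (SD, n = 4 and 3; exact permutation p = 0.171). The median probe was at 23.4, 28.7, 29.0 and 25.9 CPM in the thymoma mice in the order above, and at 32.2, 36.4 and 31.4 CPM in the control mice. The middle probe of every thymoma library thus read lower than that of every control library. The part of saturation and of these levels in the results below was not tested.

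With all 7 mice and TMM scaling, more probes were called higher than lower in T cell segments of thymoma against those of the medulla, a balance that turned round under upper-quartile scaling (895 higher and 3168 lower). Of the 20175 probes, 1044 (5.17%) were called at an adjusted p below 0.05 (edgeR quasi-likelihood test, Benjamini-Hochberg adjustment over all probes), 791 of them higher in thymoma (3.92%) and 253 lower (1.25%). The higher probes had a median log2 fold change of 1.16 and the lower ones of −0.57, against −0.09 over all probes. Changes beyond a log2 fold change of 1 were called for 511 probes that rose (2.53%) and 26 that fell (0.129%). Beyond 2, there were 72 that rose (0.357%) and none that fell (0%), and the extremes were 4.09 and −1.93.

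**Figure D1:**
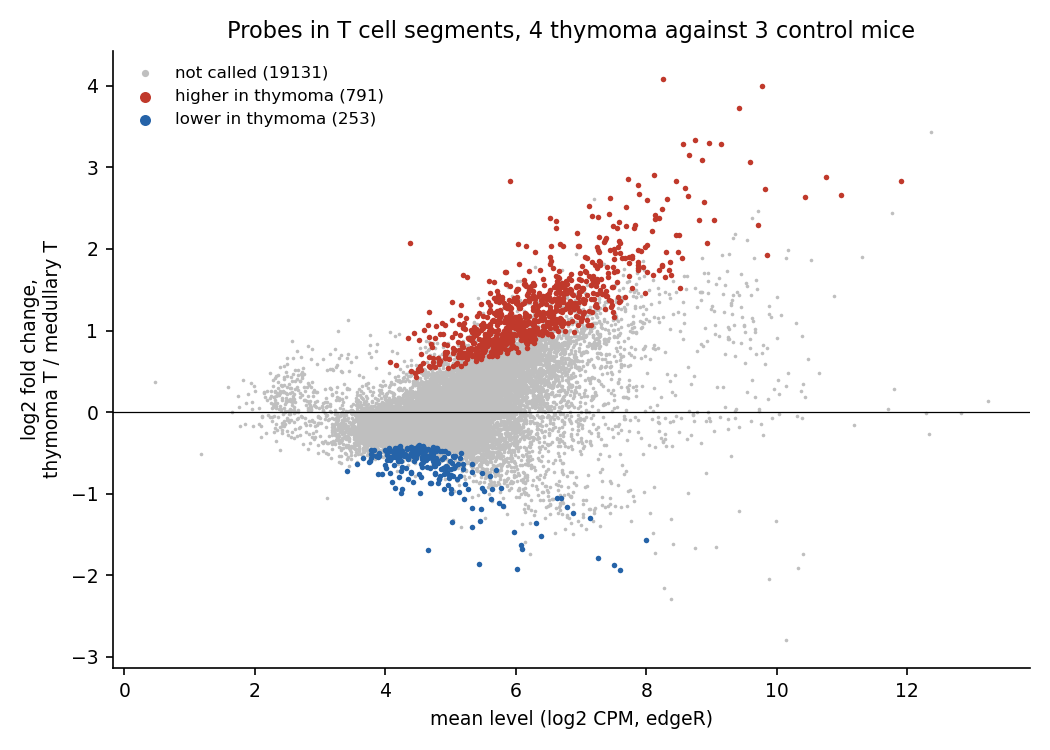
Log2 fold change of thymoma T over medullary T cells (vertical axis) against mean level (horizontal axis, log2 CPM of the edgeR fit), 1 point per probe, with 791 higher probes in red, 253 lower probes in blue and the others in grey. The red points spread upward as the level rises, and the blue points lie mostly at low levels.

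Direction went with the level of a probe. Probes were ranked by their level in the other libraries of the series, without those of mouse 1143, and divided into 4 classes of equal size. These libraries do not enter the comparison, but they include thymoma epithelium of the same regions and more cortical than medullary libraries. A probe raised in thymoma or cortex can therefore rank higher, and the part of this in the pattern was not tested. In the highest class 545 probes rose (10.8%) and 21 fell (0.416%), and the median log2 fold change was 0.44. In the lowest class 16 rose (0.317%) and 90 fell (1.78%), with a median of −0.19. Between those, the counts were 48 higher and 98 lower in the second class, and 182 higher and 44 lower in the third. Lower calls were thus most frequent among probes with a typical level of 15.6 to 22.5 CPM in thymoma and 21.3 to 30.3 CPM in medullary T cells.

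The number of calls depended on single mice. Without shallow control mouse 1143 there were 2985 calls (14.8%), with 2017 probes higher (10%) and 968 lower (4.8%), and all 1044 probes called with 7 mice were among them. The 2017 had a median log2 fold change of 0.83 and the 968 one of −0.47. Without control mouse 1057 there were 1065 higher and 129 lower. Without control mouse 1172, the remaining controls being 1057 and 1143, 5 probes were called, all lower. Leaving out thymoma mouse 1042, 1044, 1082 or 1157 left 3, 106, 1 and 0 calls, although 4368 probes still had an unadjusted edgeR p below 0.05 without mouse 1157, against 5991 with all mice. Counts below are given for all 7 mice and, where stated, for the 6 mice without 1143.

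**Figure D2:**
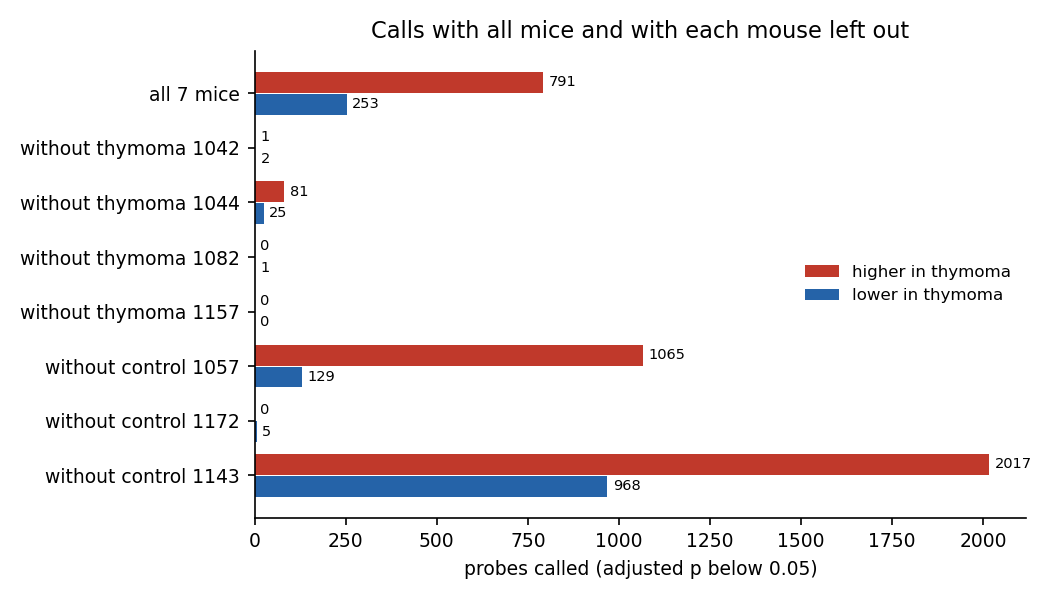
Number of probes called (horizontal axis, edgeR adjusted p below 0.05) with all 7 mice and with each mouse left out (vertical axis), higher in thymoma in red and lower in blue. The bars reach 2017 and 968 without control mouse 1143, and 4 of the other omissions leave at most 5 calls in all.

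The balance of directions changed with the scaling. TMM scaling placed 75.8% of the calls on the higher side. Under upper-quartile scaling 895 probes were higher and 3168 lower, or 22% higher, and the median of all probes lay at −0.31, against −0.09 with TMM. DESeq2, which changes both the scaling and the test, called 2428 higher and 338 lower, or 87.8% higher. By plain CPM, all 4 thymoma mice lay above all 3 control mice for 1948 probes (9.66%) and below them for 6079 (30.1%).

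The probes named by ID are the pairs with the largest and the smallest fold changes among 798 that were called with and without mouse 1143, separated the mice without overlap and lay above the median level. RTS0081234 was at 1378, 1296, 1327 and 1360 CPM in thymoma mice 1042, 1044, 1082 and 1157. In medullary T cells it was at 204, 72.3 and 11.4 CPM in control mice 1057, 1172 and 1143, the last from 4 counts. The thymoma mice lay within a narrow range, while the control mice differed among themselves by more than the thymoma mice did. Single segments did not overlap either: those of thymoma ran between 983 and 1588 CPM, and the highest medullary one reached 403 CPM. The log2 fold change was 4.00 (SE 0.78, edgeR adjusted p = 0.0297), and 3.54 without mouse 1143 (adjusted p = 0.00597). The call was lost in 9 of 18 other settings, among them each omission of 1 thymoma mouse and that of control mouse 1172, with log2 fold changes of 2.94 to 5.46 over all 18.

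RTS0081628 had the largest fold change, and it rested on 1 mouse in size. Its level was 1519 CPM in thymoma mouse 1082, and 87.3, 109 and 210 CPM in thymoma mice 1042, 1044 and 1157. Medullary T cells had 33.5, 30.4 and 34.3 CPM in control mice 1057, 1172 and 1143. All thymoma mice lay above all control mice, and mouse 1082 was far above the others in each of its 3 segments, at 1154 to 2217 CPM. The log2 fold change was 4.09 (SE 1.01, edgeR adjusted p = 0.0451) and 4.14 without mouse 1143 (adjusted p = 0.0332). Without mouse 1082 it was 2.36 (adjusted p = 0.0505). The probe was called in 7 of 18 other settings, and in none that left out 1 thymoma mouse or control mouse 1057 or 1172.

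Of the falling probes, RTS0063587 was the most even. It was at 26.9, 30.1, 31.9 and 26.9 CPM in thymoma mice 1042, 1044, 1082 and 1157, against 150, 130 and 109 CPM in medullary T cells of control mice 1057, 1172 and 1143. Neither the mice nor their segments overlapped, with 32.8 CPM in the highest thymoma segment and 95.6 CPM in the lowest medullary one. The log2 fold change was −1.92 (SE 0.19, edgeR adjusted p = 0.00631), and −1.98 without mouse 1143 (adjusted p = 0.000472). It was called in 15 of 18 other settings and lost by a narrow margin without thymoma mouse 1042, 1082 or 1157 (adjusted p = 0.0511, 0.0505 and 0.0858).

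RTS0067230 was at 59.3, 113, 91.0 and 93.8 CPM in the thymoma mice in that order. In medullary T cells it was at 254, 237 and 720 CPM in control mice 1057, 1172 and 1143. Its groups did not overlap, and mouse 1143 was the highest library. The log2 fold change was −1.93 (SE 0.44, edgeR adjusted p = 0.0381) and −1.18 without mouse 1143 (adjusted p = 0.0125). The call held in 9 of 18 other settings and was lost without each single thymoma mouse and without control mouse 1172 (adjusted p = 0.0764 to 0.182). In cortical T cells mouse 1143 was again the highest, at 387 CPM among 4 mice.

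**Figure D3:**
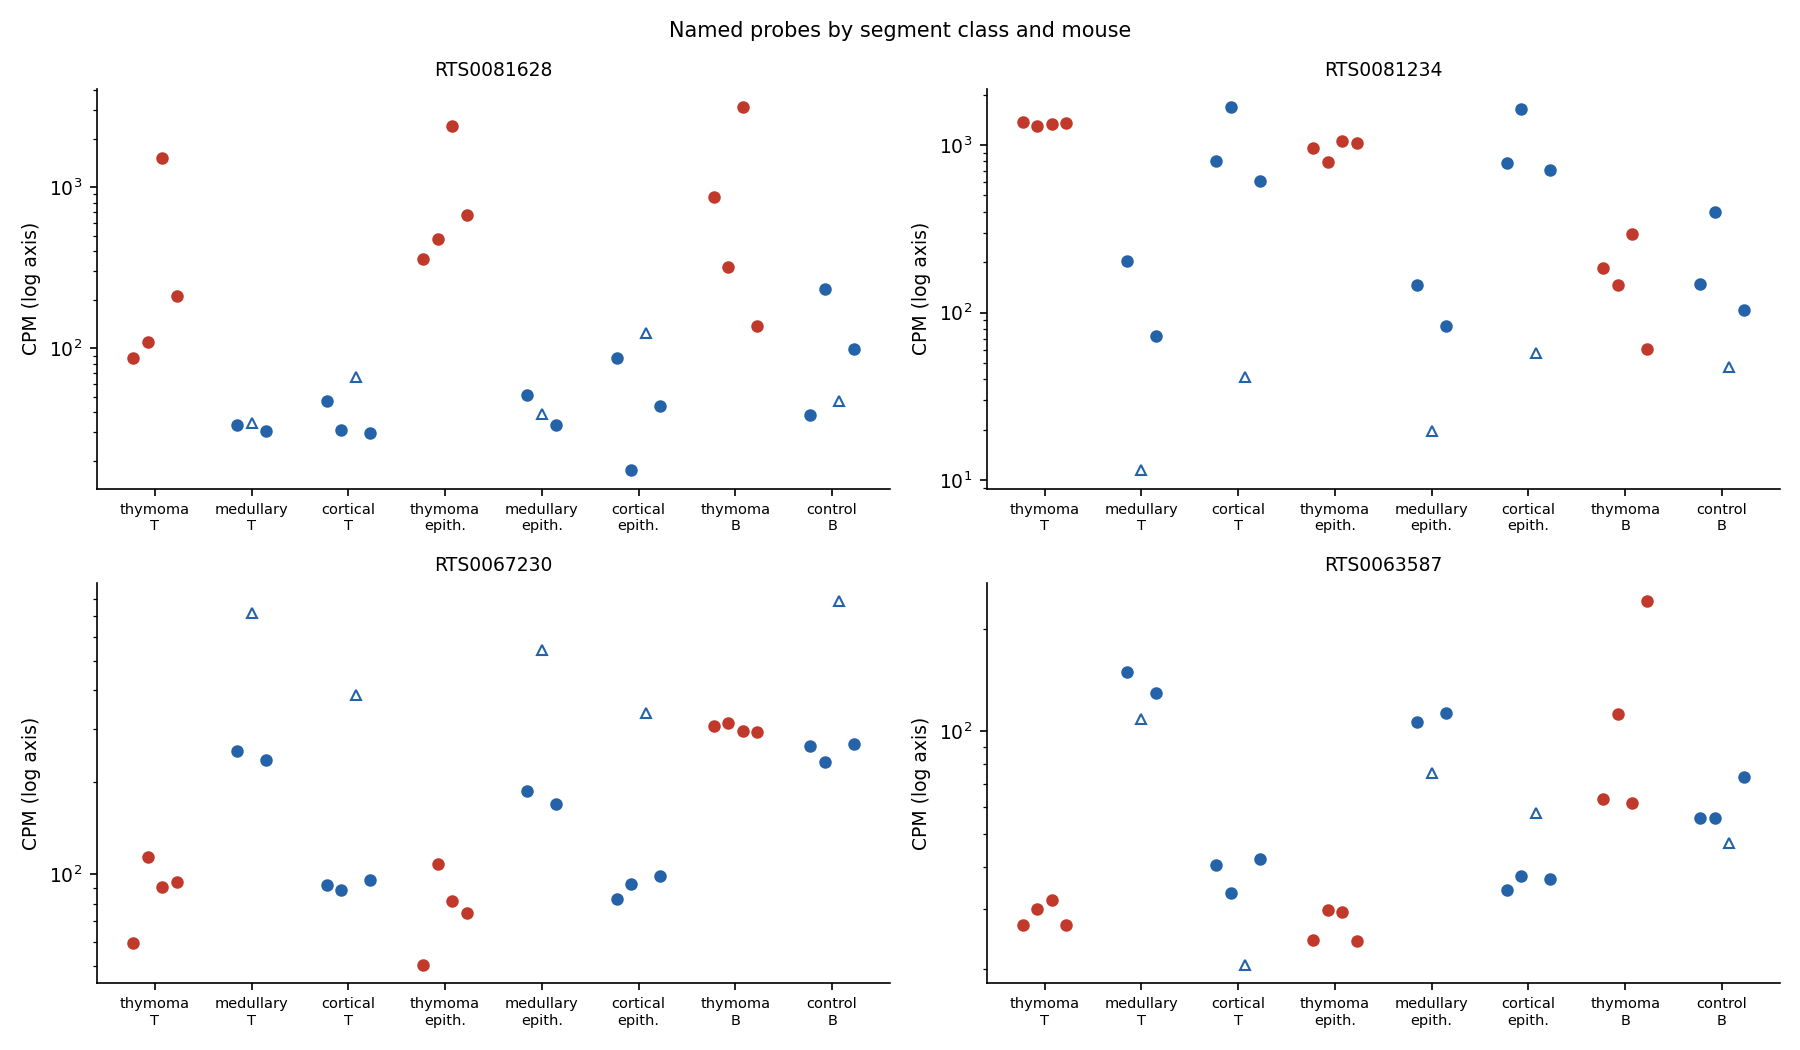
CPM per mouse (vertical log axes) of the 4 named probes in 8 segment classes (horizontal axis), thymoma in red, control in blue, and control mouse 1143 as an open triangle. RTS0081234 and RTS0063587 separate thymoma T from medullary T cells, and cortical T cells of the control mice other than 1143 lie nearer to thymoma than medullary T cells do. RTS0081628 is highest in mouse 1082 in all 3 thymoma classes.

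To describe the calls without gene names, probes were grouped by where they were high in segments that do not enter the comparison. A cortical set of 1149 probes was higher in cortical than in medullary epithelium of control mice, and a medullary set of 969 was lower there. Those of a cortical epithelial mask set (594 probes) were higher under the pan-cytokeratin mask than under the CD3 mask of the cortex, and those of a cortical T cell mask set (21 probes) were lower. A medullary epithelial set (133 probes) was above both B cells and cortical T cells, and a B cell set (414 probes) above both medullary epithelium and cortical T cells. In thymoma, 3661 probes were higher in epithelium than in B cells (thymoma epithelial set) and 2279 lower (thymoma B set). The libraries differ from those compared, but the mice are the same and each T cell region was shared with an epithelial segment. Part of any movement can therefore follow from how the sets were called, and this part was not tested. The sets also overlap: 785 of the 1149 cortical probes were in the thymoma epithelial set, and 117 of the 133 medullary epithelial probes in the medullary set.

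Cortical probes made up more of the RNA in T cell segments of thymoma than in those of the medulla. Their share of all counts was 22.2%, 17.7%, 18.3% and 20.6% in thymoma mice 1042, 1044, 1082 and 1157, and 11.0%, 7.76% and 7.35% in medullary T cells of control mice 1057, 1172 and 1143. The lowest thymoma mouse lay above the highest control mouse, and the lowest thymoma segment, at 166000 summed CPM, above the highest medullary segment, at 134500. In the edgeR fit 501 of them rose (43.6%, against 3.92% of all probes), no member fell (1.25% of all probes did), and the median log2 fold change was 1.01 (−0.09 over all probes). Without mouse 1143, 862 rose (75%, against 10% of all probes) and the median was 0.96. Over 19 other settings the median was 0.76 to 1.22. Calls of members moved with the calls of all probes. Without control mouse 1057, 603 rose (52.5%, against 5.28% of all probes), and without thymoma mouse 1044, 72 rose (6.27%, against 0.401%). Without thymoma mouse 1042, 1 rose (0.087%, against 0.00496% of all probes), and none without control mouse 1172 or thymoma mouse 1082 or 1157.

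In the T cell segments of the control cortex, the cortical share was 15.4% in mouse 1057, 17.2% in 1059, 12.9% in 1172 and 14.0% in 1143. Every thymoma T cell library had a larger share than each of these, and mouse 1044, the lowest of thymoma, was close to mouse 1059. The thymoma epithelium libraries themselves held 16.6% to 20.2%.

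Medullary probes moved the other way and by less. They held 4.44%, 4.24%, 3.66% and 4.10% of counts in thymoma mice 1042, 1044, 1082 and 1157, against 5.99%, 5.57% and 5.41% in medullary T cells of control mice 1057, 1172 and 1143. The groups did not overlap. In the edgeR fit 94 of the 969 fell (9.7%, against 1.25% of all probes) and 2 rose (0.206%, against 3.92%), and the median log2 fold change was −0.19 (−0.09 over all probes). Without mouse 1143, 184 fell (19%, against 4.8% of all probes) and 9 rose (0.929%, against 10%). The count that fell was 46 without control mouse 1057 (4.75%, against 0.639% of all probes). It was at most 16 without any other single mouse, the 16 without mouse 1044 (1.65%, against 0.124% of all probes). Cortical T cells of the control mice held 3.23% to 3.83% of counts in this set.

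Medullary epithelial probes were called lower more often than higher. They were chosen as higher in medullary epithelium than in B cells and cortical T cells, and were not set against medullary T cells. As a set they held 1.05% to 1.54% of counts in medullary epithelium. The member RTS0063587, however, averaged 129 CPM in medullary T cells and 98.4 CPM in medullary epithelium. Of the 133, 20 fell (15%, against 1.25% of all probes) and 2 rose (1.5%, against 3.92%) in the edgeR fit, around a median log2 fold change of −0.16 (−0.09 over all probes). Without mouse 1143, 33 fell (24.8%, against 4.8% of all probes) and 9 rose (6.77%, against 10%). At most 5 fell without control mouse 1172 or any 1 thymoma mouse, the 5 without mouse 1044 (3.76%, against 0.124% of all probes). Their share was 0.713%, 0.705%, 0.536% and 0.557% in thymoma mice 1042, 1044, 1082 and 1157, and 0.735%, 0.731% and 0.831% in control mice 1057, 1172 and 1143. Mice 1042 and 1044, which shared a slide, lay just under the control mice, and 1082 and 1157, which shared the other slide, lay well under them.

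**Figure D4:**
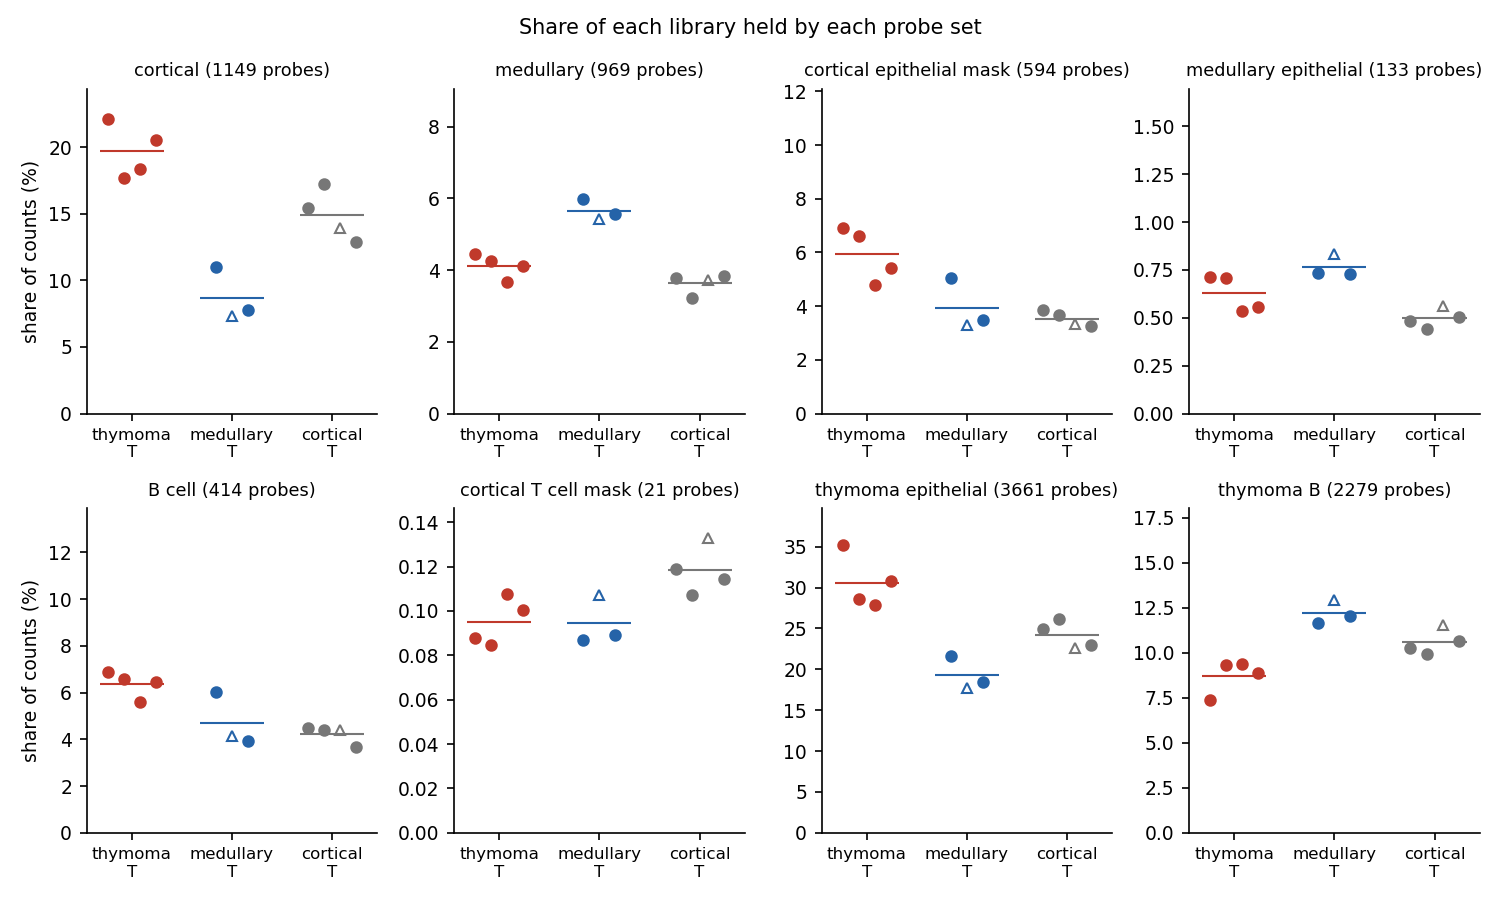
Share of all counts (vertical axes, %) held by each of 8 probe sets in T cell libraries of thymoma, control medulla and control cortex (horizontal axes), 1 point per mouse with the mean as a line and control mouse 1143 as an open triangle. The cortical share is above 17% in every thymoma mouse and at most 11.0% in medullary T cells, and the medullary share is lower in thymoma.

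Probes that mark the other masks were measured under the CD3 mask as well. The cortical epithelial mask set held 6.90%, 6.60%, 4.80% and 5.43% of counts in thymoma T cells of mice 1042, 1044, 1082 and 1157, and 5.06%, 3.47% and 3.29% in medullary T cells of mice 1057, 1172 and 1143. The groups overlapped, since thymoma mouse 1082 lay below control mouse 1057. By edgeR, 59 of the 594 rose (9.93%, against 3.92% of all probes) and 4 fell (0.673%, against 1.25%), around a median log2 fold change of 0.46. Without mouse 1143, 129 rose (21.7%, against 10% of all probes) and 9 fell (1.52%, against 4.8%). At most 3 rose without control mouse 1172 or any 1 thymoma mouse, the 3 without mouse 1044 (0.505%, against 0.401% of all probes). Under the pan-cytokeratin mask of the same thymoma mice, the share was 8.29% to 11.0%.

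The thymoma epithelial set was called between the epithelial and B220 masks of thymoma and not against T cells, so its probes need not be epithelial. It held 35.2%, 28.6%, 27.8% and 30.9% of counts in thymoma T cells and 21.6%, 18.4% and 17.7% in medullary T cells, with the mice in the same order. In thymoma epithelium of mice 1042, 1044, 1082 and 1157 it held 36.1%, 29.5%, 30.7% and 32.9%. Thymoma and medullary T cells did not overlap. Between them, edgeR called 641 of the 3661 probes higher (17.5%, against 3.92% of all probes) and 5 lower (0.137%, against 1.25%), around a median of 0.49. Without mouse 1143, 1322 were higher (36.1%, against 10% of all probes). At most 77 were higher without control mouse 1172 or any 1 thymoma mouse, the 77 without mouse 1044 (2.1%, against 0.401% of all probes). The thymoma B set held 7.38%, 9.31%, 9.38% and 8.85% in thymoma T cells and 11.7%, 12.0% and 12.9% in medullary T cells. Of its 2279 probes 81 fell (3.55%, against 1.25% of all probes) and 15 rose (0.658%, against 3.92%), with 254 that fell without mouse 1143 (11.1%, against 4.8%). Without control mouse 1172 or any 1 thymoma mouse at most 14 fell, the 14 without mouse 1044 (0.614%, against 0.124% of all probes). The part of RNA from epithelial cells in the higher calls was not tested.

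The share of counts held by probes of B cells overlapped between the groups. The B cell set held 6.87%, 6.56%, 5.62% and 6.45% of counts in thymoma mice 1042, 1044, 1082 and 1157, and 6.01%, 3.93% and 4.15% in medullary T cells of control mice 1057, 1172 and 1143. Thymoma mouse 1082 lay below control mouse 1057, and thymoma mice 1042, 1044 and 1157 lay above every control mouse. Of 414 probes 20 rose (4.83%, against 3.92% of all probes) and 11 fell (2.66%, against 1.25%). Without mouse 1143, 47 rose (11.4%, against 10% of all probes) and 25 fell (6.04%, against 4.8%), shares near those of all probes. Without control mouse 1057, 47 rose (11.4%, against 5.28% of all probes) and 3 fell (0.725%, against 0.639%). The median log2 fold change of the set was 0.19 (−0.09 over all probes), with 63% of its probes above 0 (41.6% of all probes). Under upper-quartile scaling it was −0.03, where the median of all probes was −0.31. In B cell segments the share was 11.0% to 12.6% in thymoma and 7.76% to 11.4% in control. The 21 probes of the cortical T cell mask held 0.0847% to 0.108% in thymoma T cells and 0.0869% to 0.107% in medullary T cells. Of these 1 was called, higher (4.76%, against 3.92% of all probes), while the median log2 fold change was −0.25 (−0.09 over all probes). Without mouse 1143, 2 were higher (9.52%, against 10% of all probes) and 2 lower (9.52%, against 4.8%).

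The cortical and medullary sets were also called anew without each control mouse, which was then set alone against the 4 thymoma mice by log2 CPM. Against mouse 1057, 541 cortical probes called from the other mice had a median difference of 0.67, and 93.9% of them were higher in thymoma. Against mouse 1172, the median was 0.91 over 509 probes (95.9% higher), and against mouse 1143 it was 1.18 over 1207 probes (88.6% higher). Over all probes these medians were −0.25, −0.42 and −0.16, with 24.5%, 23.9% and 43.4% higher. For the medullary probes they were −0.84 over 127 probes against mouse 1057 (4.72% higher), −0.54 over 655 against mouse 1172 (11% higher) and −0.39 over 1201 against mouse 1143 (29% higher). The cortical medians were thus positive against each control mouse while those of all probes were negative. The medullary medians lay below those of all probes, but against mouse 1172 the single thymoma mice ran between −0.67 and −0.34, which takes in the −0.42 of all probes.

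Most probes that rose belonged to a set, and probes that fell were in no set less often than all probes. Among the 791 higher probes 501 (63.3%) were in the cortical set, where 5.7% of all probes are. In the thymoma epithelial set, which was called against B cells only, were 641 (81%), where 18.1% of all probes are. Only 61 (7.71%) were in no set. Of the 253 lower probes 94 (37.2%) were medullary, where 4.8% of all probes are, and 125 (49.4%) were in no set, where 65.9% of all probes are.

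The epithelial segments of the same regions were compared next, and most probes that rose in T cells rose there too. Under the pan-cytokeratin mask, thymoma epithelium against medullary epithelium gave 2036 calls (10.1%), 1469 higher (7.28%) and 567 lower (2.81%). Without mouse 1143 there were 3627 (18%), 2453 higher (12.2%) and 1174 lower (5.82%). Of the 791 probes higher in thymoma T cells, 671 were also called higher there, which is 84.8% of them and 45.7% of the epithelial list, and none was called lower. Their median log2 fold change under that mask was 1.08. Of the 253 lower probes 115 were called lower in epithelium (45.5% of them and 20.3% of the epithelial list), with a median of −0.52 over the 253. All 12 thymoma T cell regions and all 11 medullary T cell regions also held an epithelial segment, so the segments compared are neighbours in the same tissue.

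The change itself differed between the CD3 and pan-cytokeratin masks for 246 probes (1.22%) in a fit with the mouse as a block. It was more positive in T cells for 81 (0.401%) and more negative for 165 (0.818%). Of these 165, 95 belonged to the cortical epithelial mask set, which holds 2.94% of all probes. That set was called by the same pair of masks in the control cortex, so the 95 are a description only. Of the 791 higher probes 9 changed more and 16 less under the CD3 mask, and of the 253 lower probes 5 were more negative and 16 less so, all among probes chosen by their change under the CD3 mask. The count was 26 without control mouse 1057, 122 without control mouse 1172 and 0 without the block, with 232 probes then at an unadjusted edgeR p below 0.05.

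B cell segments, which shared no region with the T cell segments, gave almost no calls. The control B cell libraries held 413591 counts in mouse 1057, from 1 segment, 63805 in 1143, 4212933 in 1059 and 2377215 in 1172. Those of thymoma held 3286275 to 8468431. The part of this depth in the number of calls was not tested. Thymoma B cells against control B cells gave 1 call (0.00496%), which was higher, both with and without mouse 1143, and 1832 probes had an unadjusted edgeR p below 0.05 with all mice. There the 791 probes had a median log2 fold change of 0.09, with 62.2% above 0, and the 253 a median of −0.14, with 23.7% above 0, against 48.2% over all probes. Labels of control B cell segments name neither cortex nor medulla, so a difference between masks cannot be told apart from a difference in control reference. The change differed between the CD3 and B220 masks for 763 probes (3.78%) in a fit of the 7 mice that leaves out control mouse 1059, more positive in T cells for 555 (2.75%) and more negative for 208 (1.03%). It was more positive for 353 of the 791 higher probes and more negative for 53 of the 253 lower ones. Since these probes were chosen by their change in the same T cell libraries, that choice favours this direction, and the numbers are a description only. The count of 763 was 509 without mouse 1143, 225 without control mouse 1057, 23 without control mouse 1172 and 1559 without thymoma mouse 1082, and without the block it was 0, with 1651 probes at an unadjusted edgeR p below 0.05.

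**Figure D5:**
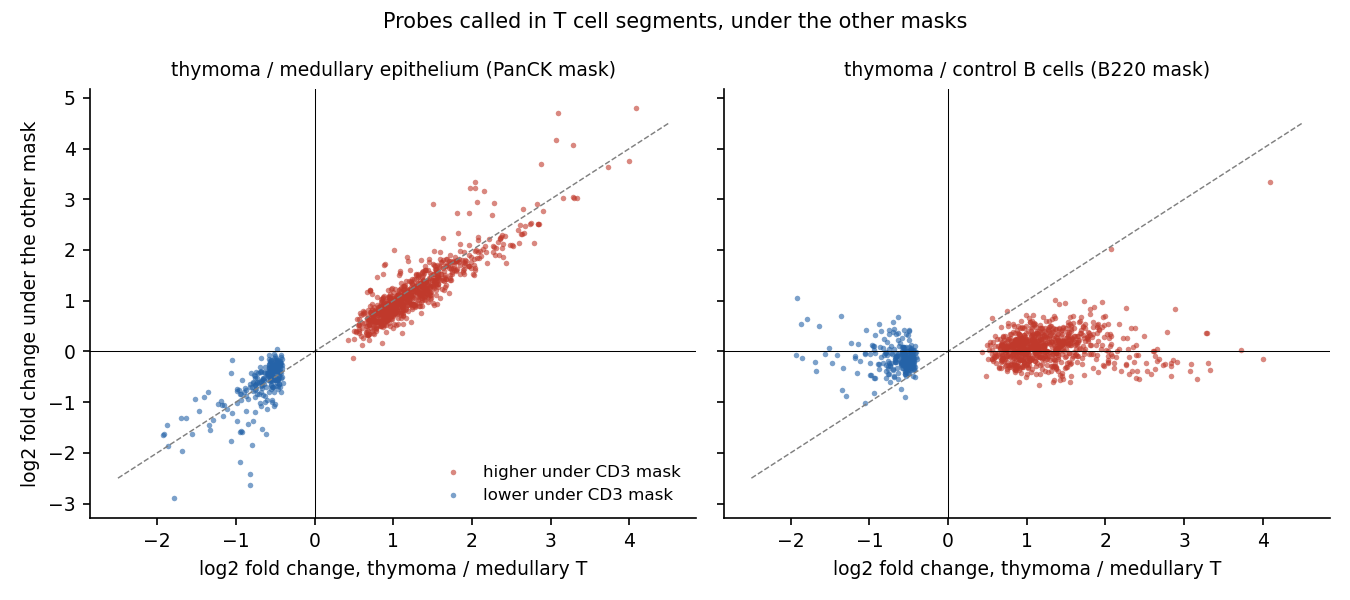
Log2 fold change of thymoma over control under the pan-cytokeratin mask (left panel, vertical axis) and the B220 mask (right panel) against that of thymoma T over medullary T cells (horizontal axes), 1 point per probe called in T cells, with equality as a dashed line. In the left panel the 791 red and 253 blue points lie along the line, and in the right panel most lie around 0, with medians of 0.09 and −0.14.

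The named probes were then set side by side under the other masks. Between thymoma and medullary epithelium, the log2 fold change was 4.79 for RTS0081628, 3.75 for RTS0081234, −1.66 for RTS0067230 and −1.63 for RTS0063587, each called (edgeR adjusted p = 0.00996, 0.0115, 0.0366 and 0.00442). In B cells the 4 values were 3.33, −0.16, −0.08 and 1.05, and none was called (adjusted p = 0.369, 0.946, 0.973 and 0.441). RTS0063587 averaged 120 ± 84.5 CPM in thymoma B cells and 57.8 ± 11.0 CPM in control B cells (SD, n = 4 each). Differences between masks come from the fit with the mouse as a block, and need not equal those between the log2 fold changes of separate fits. For 3 of the probes, which were chosen by their change under the CD3 mask, the difference between the CD3 and B220 masks was also called, at 3.46 for RTS0081234, −1.56 for RTS0067230 and −2.74 for RTS0063587 (edgeR adjusted p = 0.000288, 0.00053 and 0.000355). RTS0081628 was the exception, at −0.10 (adjusted p = 0.968), and it was high in thymoma B cells too, at 1114 ± 1380 CPM against 105 ± 90.2 CPM in control B cells (n = 4 each).

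Values against T cells of the control cortex stand beside these, from a comparison that uses the same thymoma libraries. With all mice it gave 1 call (0.00496%), which was lower in thymoma, and 4629 probes at an unadjusted edgeR p below 0.05. Without mouse 1143 it gave 3034 (15%), 1355 higher (6.72%) and 1679 lower (8.32%). The 791 probes that rose against the medulla had a median log2 fold change of 0.55 against the cortex, and the 253 that fell one of −0.27, where all probes had −0.06. RTS0081234 was at 806, 1684, 607 and 41.2 CPM in cortical T cells of control mice 1057, 1059, 1172 and 1143. Only mouse 1059, which had no medullary segment, lay above the 4 thymoma mice, and the other control mice lay below all of them. The log2 fold change of RTS0081234 against the cortex was 0.94 (edgeR adjusted p = 0.407). RTS0063587 averaged 28.9 ± 2.45 CPM in thymoma T cells and 34.1 ± 9.81 CPM in cortical T cells (SD, n = 4 each), with a log2 fold change of −0.16 (adjusted p = 0.457). RTS0081628 was at 29.8 to 66.3 CPM in cortical T cells, below each thymoma mouse.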

How the data were processed

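Each segment has 1 deposited file of raw counts by probe, written by GeoMx_NGS_Pipeline 2.0.0 in DCC format 0.02, per the file headers. In 19 of the deposited files the column of counts also takes in other header values, so its unit had to be listed as other; these were read in the same way. The deposited counts carry no background correction or scaling, negative control probes could not be identified, and no genome build applies. Saturation is 100 minus the counts as a percentage of aligned reads.

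Counts were summed per mouse, scaled by TMM, filtered by filterByExpr (which kept all 20175 probes) and tested in R 4.3.3 with the quasi-likelihood test of edgeR 4.0.16 (Benjamini-Hochberg adjusted p below 0.05); only the groups compared entered a fit. The interactions and the probe sets had a block for the mouse, because segment classes of 1 mouse are paired by the mouse named in the labels. Alternatives used limma 3.58.1 and DESeq2 1.42.0, and single values an exact permutation with scipy 1.17.1. Segments of a mouse are not replicates. The labels name separate mice, and p-values measure the spread between them. The comparison, its sets, tests and rules were chosen with earlier results of these data known. The tests were checked on simulated data in which all mice had the same mean profile and spread, apart from the changes put in. The check therefore does not cover a library that departs like that of mouse 1143. Named probes were those called with and without mouse 1143, above the median level and without overlap between the groups, at the 2 largest and the 2 smallest fold changes. Lists of marker genes were not used, since no table pairs probe IDs with genes.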

Additional observations from a re-analysis of the deposited data

Results flagged for a closer look

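In groups of 4 mice, the highest or lowest mouse was set against the range of its group. This was done for the named probes, the shares of the probe sets and single values. Of 36 such groups 6 stood out. The cutoff is meant to flag about 1 in 20 of independent groups with normal values. These groups share mice and hold probes chosen for large changes, so that rate need not apply. RTS0081628 was far above the other mice in thymoma mouse 1082, both in T cells (1519 CPM) and in epithelium (2385 CPM). The other 4 concerned shallow control mouse 1143, in which RTS0067230 was high in B cells (783.6 CPM), cortical T cells (386.6 CPM) and cortical epithelium (336.6 CPM), and RTS0063587 in cortical epithelium (57.7 CPM). In cortical epithelium a floor of 3 counts is 28.8 CPM in that mouse.

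The thymoma change differed between masks for 246 probes between CD3 and pan-cytokeratin and for 763 between CD3 and B220 (edgeR, mouse as block). For B220, mask and control reference cannot be told apart, since labels of control B cells name neither cortex nor medulla. Differences from these fits need not equal those between the log2 fold changes of separate fits. Among the named probes the difference between masks was −1.23 for RTS0081628 between CD3 and pan-cytokeratin (edgeR adjusted p = 0.0345). Between CD3 and B220 it was 3.46 for RTS0081234, −1.56 for RTS0067230 and −2.74 for RTS0063587. All 4 probes were chosen by their change under the CD3 mask, which favours the direction of these last 3 differences.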

How the results depend on the processing

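No result changed sign among the 4 named probes under any setting run. The median of the B cell set was positive in 18 of 19 settings and negative under upper-quartile scaling, and the medians of the other 7 sets kept their sign in 19 of 19. Counts of calls and their balance moved, and the cause was not tested: 75.8% of calls were higher with all mice, 22% under upper-quartile scaling, 4% against the Gtf2ifl/fl control alone and 0% without mouse 1172. From 1044 calls (791 higher, 253 lower) with all mice, leaving out 1 mouse gave 0 to 2985 (0 to 2017 higher, 0 to 968 lower). DESeq2 gave 2766 (2428 higher, of 13524 probes with an adjusted p), upper-quartile scaling 4063 (3168 lower), and quantile-normalized values in limma 142 (111 and 31). Keeping the 10087 highest probes by mean level gave 583 (384 higher). The Gtf2ifl/wt controls alone, which is the omission of mouse 1057, gave 1194 (129 lower), and the Gtf2ifl/fl control alone 25 (1 and 24), where the single control mouse, 1057, is assumed to vary like the thymoma mice. Mean log2 CPM over segments in limma gave 2 (1 and 1), segments as libraries with the mouse as a random block 4257 (2815 and 1442), thinning to 350028 counts 151 (122 and 29), and a fit that also held cortical T cells 717 (491 higher). No filter on low counts gave the same 1044.

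No paired analysis was possible because the mice of the main comparison differ between the groups. For the interactions, the fit with no replicate block gave 0 calls for both masks, and without mouse 1143 as well, added after seeing the data, 1 for pan-cytokeratin and 67 for B220. Leaving out 1 mouse gave 26 to 292 and 23 to 1559. Depth limits mouse 1143, where 18 probes had no count.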
